A study of Mus musculus with 4 samples.

Results

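Growth factor receptors for early blood cells were compared between IRF8-GFP positive and IRF8-GFP negative lymphoid-primed multipotent progenitors (LMPP), an early bone marrow cell that can still give lymphoid and myeloid progeny. The set comprised 9 genes, Flt3, Kit, Csf1r, Csf2ra, Il3ra, Csf2rb, Csf2rb2, Csf3r and Epor. Their members on the array were all non-control probes whose RefSeq accession maps to one of these symbols, which gave 14 of 55669 probes. All 14 were well above background on all 4 arrays and passed the filter on dim signals, among 30478 probes that did. Csf1r had 3 probes, Flt3, Csf2rb and Csf2rb2 had 2 each, and the other 5 genes had 1.

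The IRF8-GFP positive and the IRF8-GFP negative LMPP both came from bone marrow of IRF8-GFP knock-in mice, whose green fluorescent protein reports IRF8, a transcription factor needed for monocyte and dendritic cell development. There were 2 arrays a group, numbered exp1 and exp2. Magnetic enrichment and then flow sorting kept cells positive for Sca-1, CD34, CD117 and CD135 and negative for lineage markers (Lin), CD150 and IL-7R, and the groups differed only in the IRF8-GFP gate, (+) or (-). CD117 is the Kit protein and CD135 the Flt3 protein, so both groups were selected for surface Kit and Flt3 before their transcripts were measured. Age, strain, number of animals and any pooling are not given in the sources used here, and whether exp1 and exp2 are separate animals is not stated either. A p-value here weighs a difference against array-to-array spread that may be technical, and so few arrays limit precision.

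These receptors relay the growth factors that keep progenitors alive and steer their choice of lineage. Flt3, Kit and Csf1r are class III receptor tyrosine kinases, which dimerize when they bind Flt3 ligand, stem cell factor, or M-CSF and IL-34. The receptors for GM-CSF and IL-3 lack a kinase of their own: a ligand-binding alpha chain (Csf2ra or Il3ra) pairs with a shared beta chain (Csf2rb), and mice carry a further beta chain, Csf2rb2, that serves IL-3. Csf3r, the G-CSF receptor of the neutrophil line, and Epor, the erythropoietin receptor of red cell progenitors, pair with a second copy of themselves and signal through Janus kinases.

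Levels below are log2 processed signals relative to each array's 75th percentile of signal, and a difference is the positive mean minus the negative mean, from a limma fit over all 30478 probes with Benjamini-Hochberg adjustment. A probe's level says nothing about the level of another probe. The adjusted p threshold was 0.05. At that threshold 57.0% of all probes passed, 35.0% higher and 22.0% lower in the positive group, so a call alone sets no probe apart. A difference of at least 2-fold was rarer, at 2.20% of probes higher and 6.11% lower. Of the 14 receptor probes 9 passed as higher, 2 passed as lower and 3 did not pass, and 2 of them, both of Csf1r, were also at least 2-fold higher. Calls as higher were more frequent among bright probes. In the brightest of 4 equal groups of probes, which held 8 of the 14, 4932 of 7620 passed as higher and 635 as lower. The next group held 5 of the 14, and 2943 of its 7619 probes passed as higher and 1692 as lower. The median difference of the 14 was 0.48, against 0.14 over all tested probes. Genes with several probes weigh more in these counts and in that median, above all Csf1r with 3. By brightest probe, 5 of the 9 genes passed as higher and 2 as lower, beside 43.1% and 18.5% of all genes with a symbol. The groups did not overlap in 13 of 14 receptor probes, 10 with the positive arrays above and 3 with the positive arrays below, where 81.4% of all probes did not overlap, 49.8% above and 31.6% below. An exact permutation of 2 against 2 arrays cannot give a p below 0.333, so the adjusted p-values rest on the model.

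Library-wide values bear on these results. Of 59305 spots, 29631 and 30266 on the positive arrays passed the scanner software's background test, against 33506 and 33681 on the negative arrays. Irf8, the gene behind the sorted reporter, was higher in the positive group by 3.55 (SE 0.07, limma adjusted p = 0.00116). All 10 LMPP markers were measured, among them Cd34 and Dntt, while Slamf1 (CD150, excluded by the gate) was above background on no array. Il7r, whose protein the gate also excluded, was well above background on all 4 arrays and higher in the positive group. The difference rose with brightness, from a median of -0.08 in the dimmest of 4 equal groups of probes to 0.37 in the brightest, and 8 of the 14 receptor probes lay in the brightest group. Each difference is therefore given with its range over 7 ways of scaling the arrays, from the 75th percentile to spike-in scaling and cyclic loess. In such bulk samples fewer cells with a transcript and less transcript per cell cannot be told apart.

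**Figure D1:**
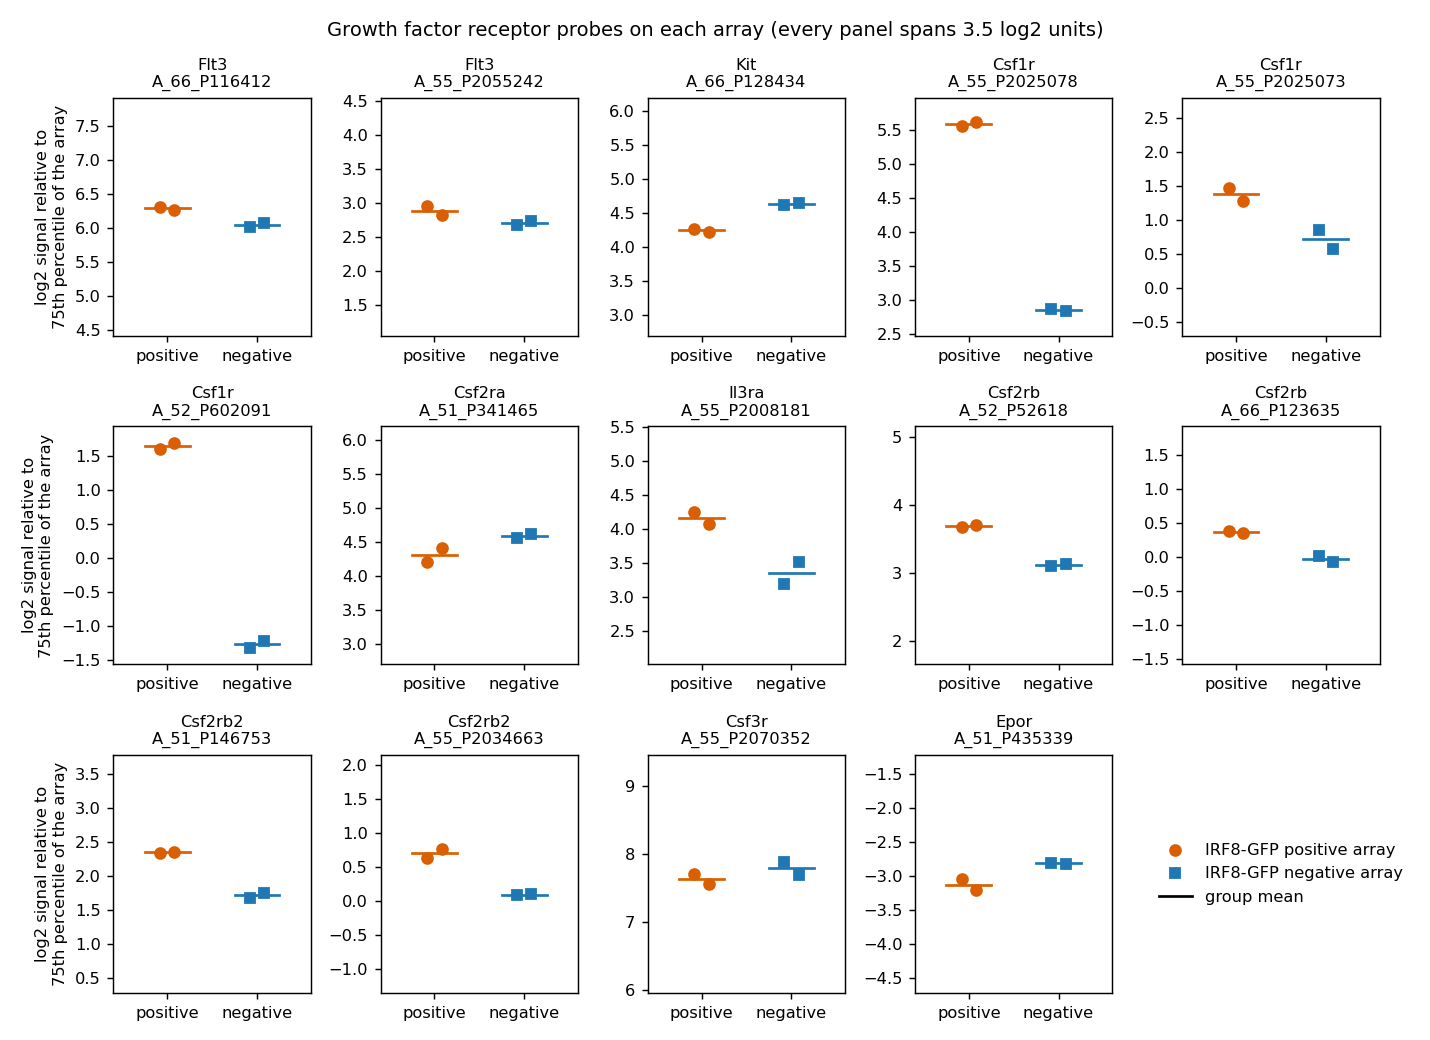
Log2 signal of the 14 receptor probes relative to the 75th percentile of each array, with positive arrays (circles) left of negative arrays (squares) and horizontal lines at the group means (n = 2 each). Every panel spans the same range, so the separation of Csf1r on 2 of its 3 probes can be compared with the small shifts of the other genes.

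Csf1r stood out among the kinase receptors. It encodes the receptor for M-CSF and IL-34, the main growth factor receptor of monocytes and macrophages. On the brightest probe, A_55_P2025078, its level was 5.56 and 5.62 on the positive arrays and 2.86 and 2.84 on the negative arrays. The difference was 2.74 (SE 0.06, limma adjusted p = 0.00116), or 6.68-fold higher, and lay above that of 99.8% of all probes. In scanner units the processed signals of this probe were 15020 and 20344 on the positive arrays and 3184 and 3890 on the negative arrays, so the negative group also held clear signal. Probe A_52_P602091 gave 1.59 and 1.68 on the positive arrays and -1.33 and -1.22 on the negative arrays, a difference of 2.91 (SE 0.07, limma adjusted p = 0.00117). Both probes passed under all scalings, with differences of 2.37 to 2.78 and 2.60 to 2.95.

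The third Csf1r probe did not follow the other two. A_55_P2025073, listed under the same transcript as the other two, gave 1.47 and 1.29 on the positive arrays and 0.86 and 0.58 on the negative arrays. The positive arrays were again higher, by 0.66 (SE 0.13, limma adjusted p = 0.0181), which is 1.58-fold. Within each array, A_55_P2025078 gained 2.08 (SE 0.18) on A_55_P2025073 in the positive group relative to the negative group, and 1.83 to 2.08 over the scalings. The smaller probe lost its call with spike-in scaling and with the percentile taken over probes above background on all arrays, and without negative replicate 2 (adjusted p of up to 0.136 over the scalings and 0.0702 without that array). The files give no position of a probe in its transcript, and the reason for the disagreement was not tested.

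Several transcripts of monocytes moved with Csf1r. Of 15 monocyte and macrophage markers on the array 11 passed the filter, of which 7 rose, 2 fell and 2 did not pass, where 61.6% of all genes with a symbol passed, 43.1% as higher and 18.5% as lower. The summed signal of these markers, in multiples of the array's 75th percentile, was 68.9 to 69.6 on the positive arrays and 32.1 to 36.2 on the negative arrays. Without Itgam, the brightest gene, which itself fell, the sums were 52.2 to 54.6 and 11.3 to 11.4. Such sums weigh bright probes most. F13a1, a coagulation factor chain of monocytes and their precursors, was 37.9-fold higher (limma adjusted p = 0.00116), and the chemokine receptor gene Ccr2 14.3-fold (adjusted p = 0.00145). Itgam was 1.43-fold lower (limma adjusted p = 0.0280) and S100a4 1.28-fold lower (adjusted p = 0.0181), while Lyz2 did not pass (adjusted p = 0.916). Mertk, which marks macrophages, was above background on no array. The part of these cells in the Csf1r difference was not tested.

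Kit, the receptor for stem cell factor, was lower in the positive group. Its single probe, A_66_P128434, is printed in 2 spots on each array. Processed signals of the spots were 6051 and 6243, and 7599 and 7933, on the 2 positive arrays, against 10512 and 11004, and 13308 and 14060, on the 2 negative arrays. Averaged over spots, the level was 4.27 and 4.23 on the positive arrays and 4.62 and 4.66 on the negative arrays. The difference of -0.39 (SE 0.06, limma adjusted p = 0.00948) is 1.31-fold and passed under all 7 scalings, at -0.76 to -0.35. It lay lower than that of all but 5.59% of 501 probes of like brightness, whose median was 0.42. Without negative replicate 1 it did not pass (adjusted p = 0.0610), nor without negative replicate 2 (adjusted p = 0.0706), although the difference was -0.40 and -0.37.

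Flt3, the receptor that defines LMPP at the surface, had no settled direction. Its bright probe, A_66_P116412, had levels of 6.32 and 6.27 on the positive arrays and 6.01 and 6.07 on the negative arrays. The difference of 0.25 (SE 0.06, limma adjusted p = 0.0303) passed, but over the scalings it ran from -0.23 to 0.29, below 0 under 4 of 7. It lay above that of only 16.8% of 501 probes of like brightness, whose median was 0.51. It did not pass with the replicate number as a block (adjusted p = 0.0507) or without any one of the 4 arrays (adjusted p of up to 0.152). The other probe, A_55_P2055242, gave 2.96 and 2.82 on the positive arrays and 2.68 and 2.74 on the negative arrays, a difference of 0.18 with a 95% interval of -0.03 to 0.39 (limma adjusted p = 0.113).

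Ratios within an array do not depend on a constant scaling factor, and they separated the kinase receptors from each other. Flt3 gained 0.64 (SE 0.01) on Kit in the positive group relative to the negative group, and 0.52 to 0.64 over the 7 scalings. Csf1r gained 2.49 (SE 0.06) on Flt3 and 3.12 (SE 0.06) on Kit, each by its brightest probe. The groups did not overlap in any of these 3 ratios. The SEs are from 2 residual degrees of freedom, and unequal change does not show that either gene stayed level.

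**Figure D2:**
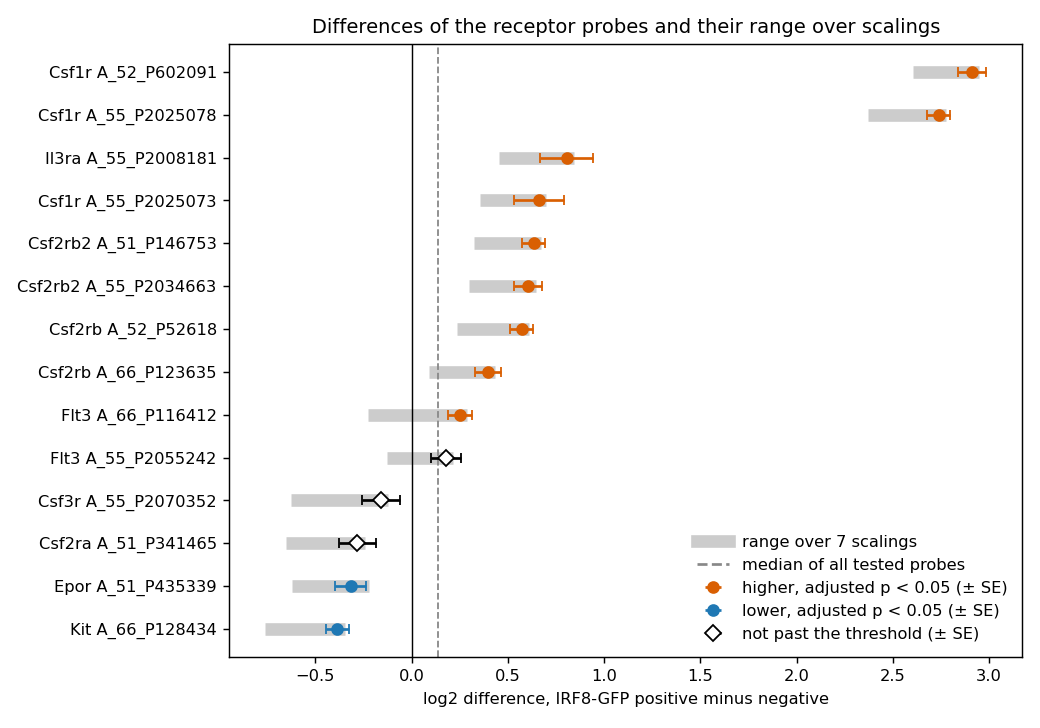
Log2 difference of each receptor probe (positive minus negative, points with SE), with grey bars for the range over 7 scalings and a dashed line at 0.14, the median of all tested probes. The bars of Csf1r, Il3ra, Csf2rb and Csf2rb2 lie above 0, those of Kit, Csf2ra, Csf3r and Epor below 0, and those of Flt3 on both sides.

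Of the IL-3 and GM-CSF receptor chains, Il3ra and both beta chains were higher in the positive group, and Csf2ra did not pass. Il3ra, the alpha chain that binds IL-3, was higher on its single probe, A_55_P2008181. The levels were 4.25 and 4.08 on the positive arrays and 3.20 and 3.51 on the negative arrays. This difference, 0.81 (SE 0.14, limma adjusted p = 0.0122) or 1.75-fold, lay above that of 92.6% of 501 probes of like brightness, and the negative arrays differed from each other more than those of any other receptor probe. Over the scalings it was 0.45 to 0.85, and it did not pass in the authors' deposited matrix values (adjusted p = 0.0505) or with cyclic loess (adjusted p = 0.0587). Mast cells and basophils also carry IL-3 receptors. Of 11 of their markers 9 were tested, of which 4 rose, 2 fell and 3 did not pass, beside 43.1% of all genes higher and 18.5% lower. Their summed signal was 9.83 to 10.8 on the positive arrays and 10.4 to 10.5 on the negative arrays. Without Gata2, the brightest of them and a gene that stem cells also use, the sum was 8.16 or more on the positive arrays and 6.78 or less on the negative arrays. Ms4a2 and Cma1, which mark mature mast cells, were above background on no array.

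Csf2ra, the alpha chain that binds GM-CSF, did not pass. Levels on A_51_P341465 were 4.21 and 4.42 on the positive arrays and 4.56 and 4.62 on the negative arrays. Both positive arrays were below both negative arrays, and the difference was -0.28 with a 95% interval of -0.54 to -0.02 (limma adjusted p = 0.0670). That interval is not adjusted for the number of probes. Under 5 of the 7 scalings the difference passed as lower, at -0.65 with cyclic loess (adjusted p = 0.0106) and -0.59 with spike-in scaling (adjusted p = 0.00762). It stayed below 0 under all 7. Of 501 probes of like brightness, whose median difference was 0.41, 8.38% lay lower. Within arrays Il3ra gained 1.09 (SE 0.23) on Csf2ra, and 1.09 to 1.14 over the scalings.

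Both beta chains were higher in the positive group, on every probe. Csf2rb, the chain shared by the receptors for IL-3, GM-CSF and IL-5, had levels on A_52_P52618 of 3.68 and 3.70 on the positive arrays and 3.10 and 3.14 on the negative arrays. The difference was 0.57 (SE 0.06, limma adjusted p = 0.00393), or 1.49-fold, with a range of 0.24 to 0.61 over the scalings, all past the threshold. It lay above that of 71.5% of 501 probes of like brightness, whose median was 0.35. The dimmer probe, A_66_P123635, gave 0.38 and 0.35 on the positive arrays and 0.02 and -0.08 on the negative arrays. This probe's difference lay above that of 77.4% of 501 probes of like brightness. Its difference of 0.40 (SE 0.07, limma adjusted p = 0.0115) was 0.09 with spike-in scaling (adjusted p = 0.410) and did not pass without negative replicate 1 or 2 (adjusted p of up to 0.0744).

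Csf2rb2, the beta chain that mice use for IL-3, gave the same picture. Levels on A_51_P146753 were 2.34 and 2.35 on the positive arrays and 1.68 and 1.75 on the negative arrays, and the difference of 0.63 (SE 0.06, limma adjusted p = 0.00357) is 1.55-fold. On A_55_P2034663 they were 0.64 and 0.77 on the positive arrays and 0.08 and 0.11 on the negative arrays, a difference of 0.61 (SE 0.07, limma adjusted p = 0.00544). Over the scalings these differences ran from 0.33 to 0.67 and from 0.30 to 0.65, and both passed under all 7. They lay above those of 87.6% and 88.0% of 501 probes of like brightness. Csf2rb and Csf2rb2 are closely related copies on chromosome 15, and how far a probe of one also binds transcripts of the other was not tested. Within arrays Csf2rb gained 0.85 (SE 0.09) on Csf2ra, and 0.85 to 0.92 over the scalings.

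The promoters of Csf2rb2 and Il3ra are shown, a beta and the alpha chain of the mouse IL-3 receptor that were both higher. Capitals mark matches to the searched motifs of blood cell factors. Each window runs from 250 bases before to 50 bases after the annotated start, on the strand of the gene, from RefSeq annotation of GRCm38.p6, a later build than that of the array design. They lie at chr15:78305672-78305971 (minus strand) for Csf2rb2 and chr14:14346245-14346544 (plus strand) for Il3ra.
Csf2rb2: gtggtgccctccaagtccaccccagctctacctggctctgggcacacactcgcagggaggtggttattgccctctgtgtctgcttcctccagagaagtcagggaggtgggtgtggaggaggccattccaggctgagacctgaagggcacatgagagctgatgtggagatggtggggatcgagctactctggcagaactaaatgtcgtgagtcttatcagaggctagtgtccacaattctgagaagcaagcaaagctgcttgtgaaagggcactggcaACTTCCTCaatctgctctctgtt
Il3ra: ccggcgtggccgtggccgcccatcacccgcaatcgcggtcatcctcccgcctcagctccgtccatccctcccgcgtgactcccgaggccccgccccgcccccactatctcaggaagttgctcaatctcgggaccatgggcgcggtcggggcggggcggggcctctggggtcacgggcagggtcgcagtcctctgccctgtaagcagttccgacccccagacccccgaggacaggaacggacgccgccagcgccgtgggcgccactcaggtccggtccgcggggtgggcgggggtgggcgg

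Csf2rb2 alone among 7 receptor promoters searched (those of Flt3, Kit, Csf2ra, Il3ra, Csf2rb2, Csf3r and Epor) holds the letters GAGGAAGT, searched as a site of PU.1, a transcription factor of myeloid cells encoded by Spi1. The match is on the opposite strand, over bases 28 to 35 after the start. Both strands were searched throughout, and 3.20% of 32851 promoter windows of 300 bases hold this motif. A composite motif of Ets and Irf factors, GGAA and GAAA with any 2 bases between them (2.72% of windows), and an interferon response motif, GAAA and GAAA with the same gap (3.44%), were found in 0 of the 7. The pair share letters and can overlap. A match is a stretch of letters and says nothing about binding.

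Csf3r, the receptor through which G-CSF drives neutrophil production, did not pass. Its probe, A_55_P2070352, was the brightest of the set, with levels of 7.69 and 7.55 on the positive arrays and 7.87 and 7.69 on the negative arrays. The groups overlapped, and the difference was -0.16 with a 95% interval of -0.44 to 0.12 (limma adjusted p = 0.242). It was -0.064 without negative replicate 1, -0.088 without positive replicate 2 and -0.25 without negative replicate 2, none of which passed. Probes of like brightness mostly differed the other way. Of 501 such probes, whose median difference was 0.37, only 0.399% lay lower. The difference was below 0 under all 7 scalings and passed as lower under 5 of them, at -0.62 with cyclic loess (adjusted p = 0.00611) and -0.57 in the authors' deposited matrix values (adjusted p = 0.00634). Whether Csf3r passed as lower therefore depended on the scaling, while its direction did not.

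Several granule genes of the neutrophil line were higher in the positive group. Of 14 neutrophil and granule markers 9 were tested, of which 6 rose, 1 fell and 2 did not pass, beside 43.1% of all genes higher and 18.5% lower. Their summed signal, mostly that of Mpo and Ctsg, was 791 to 865 on the positive arrays and 234 to 237 on the negative arrays. The other 7 genes summed to 33.3 to 34.2 on the positive arrays and 11.9 to 12.2 on the negative arrays. Mpo, which encodes myeloperoxidase, was 2.88-fold higher (limma adjusted p = 0.00211). Ctsg, which encodes the granule protease cathepsin G, was 9.15-fold higher (limma adjusted p = 0.00116). S100a9 went the other way, 2.16-fold lower (limma adjusted p = 0.00238), and passed as lower under all 7 scalings. S100a8 and Camp did not pass (limma adjusted p = 0.143 and 0.323). The late granule genes Ltf, Ngp, Mmp8 and Mmp9 and the neutrophil gene Retnlg were above background on no array.

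**Figure D3:**
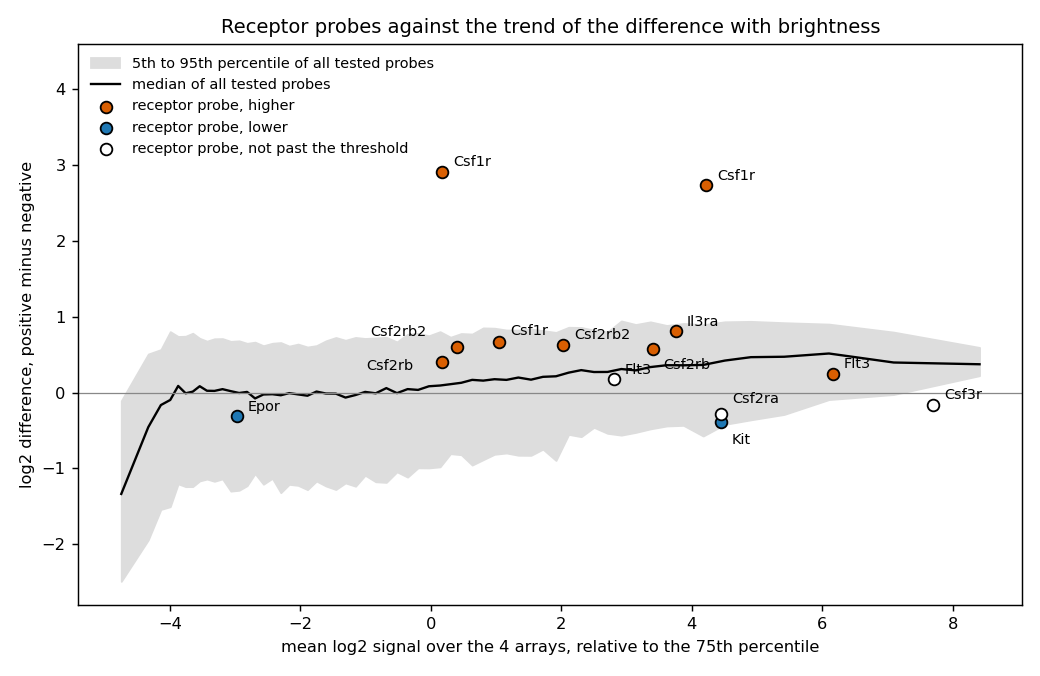
Log2 difference (positive minus negative) of the 14 receptor probes against their mean log2 signal, with the median (line) and the 5th to 95th percentile (band) of all tested probes of like brightness. Both large Csf1r differences lie far above the band, while Csf3r lies below it, with 0.399% of 501 probes of like brightness lower.

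Epor was dim and passed as lower in the positive group, though not under every processing. It encodes the receptor that carries the erythropoietin signal in red cell progenitors. Processed signals of A_51_P435339 were 38.5 and 44.8 on the positive arrays and 62.7 and 76.9 on the negative arrays, close to the dim end of the scale. On the log2 scale the levels were -3.05 and -3.21 on the positive arrays and -2.81 and -2.82 on the negative arrays. The difference was -0.32 (SE 0.08, limma adjusted p = 0.0333), or 1.24-fold, and 31.9% of 501 probes of like brightness lay lower. Over the 7 scalings the difference stayed below 0 (-0.62 to -0.22) and passed as lower under 4. It turned to 0.11 with normexp background correction (adjusted p = 0.308), and leaving out positive replicate 2 or either negative array lost the call (adjusted p of up to 0.139).

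Most tested red cell markers were lower too. Of 14 erythroid markers on the array 12 were tested, of which 8 fell, 1 rose and 3 did not pass, beside 18.5% of all genes lower. Alas2, among those that fell, and Klf1, which did not pass, were well above background on the negative arrays only. Both entered through that group. Without negative replicate 1 the count that fell was 5. Their summed signal was 25.2 to 25.9 on the positive arrays and 53.9 to 54.3 on the negative arrays, and most of that gap came from Car2, a carbonic anhydrase gene that was 3.20-fold lower (limma adjusted p = 0.00149). Without Car2 the sums were 14.3 to 14.9 on the positive arrays and 18.5 to 19.7 on the negative arrays. The alpha globin gene Hba-a1 was 2.41-fold lower (limma adjusted p = 0.00225) and the transferrin receptor gene Tfrc, which dividing cells of other types use as well, 2.77-fold higher (adjusted p = 0.00202). Rhag, which encodes a red cell membrane protein, was above background on no array. The part of red cell progenitors in the Epor difference was not tested.

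The Epor promoter is shown because it alone among the 7 windows holds AGATAA, a motif that GATA factors of red cell progenitors recognize. It appears as its complement from base -54 to -49 before the start, and a Runx motif (TGTGGT) likewise from -166 to -161, both in capitals, at chr9:21963527-21963826 (minus strand, GRCm38.p6, RefSeq). These motifs occur in 11.2% and 16.8% of all 32851 windows. Only these letters were searched, so the search does not show that the other windows lack other forms of a GATA site.
Epor: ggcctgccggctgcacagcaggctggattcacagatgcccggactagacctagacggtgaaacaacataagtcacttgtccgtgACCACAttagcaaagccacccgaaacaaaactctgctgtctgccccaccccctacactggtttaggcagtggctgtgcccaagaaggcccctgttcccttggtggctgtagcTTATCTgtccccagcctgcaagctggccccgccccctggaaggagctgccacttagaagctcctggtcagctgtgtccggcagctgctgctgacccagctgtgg

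The ligands of these receptors were mostly not measurable in the sorted cells themselves. Of 10 ligand genes, Kitl, Csf2, Csf3, Il5, Epo and Thpo were above background on no array. Of the 4 tested, 2 fell and 0 rose, beside 18.5% of all genes lower and 43.1% higher. Flt3l, which encodes Flt3 ligand, had levels of -0.43 and -0.32 on the positive arrays and 0.80 and 0.87 on the negative arrays, a difference of -1.21 (SE 0.07, limma adjusted p = 0.00218) or 2.31-fold lower. Csf1, which encodes M-CSF, was 1.45-fold lower (-0.53, SE 0.07, limma adjusted p = 0.00583). Both stayed past the threshold under all 7 scalings. Il34 and Il3 were well above background on the negative arrays only and did not pass (limma adjusted p = 0.821 and 0.312).

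Counts of related cytokine receptor chains lay near the shares of all genes. Of 19 tested of 21, 10 rose, 4 fell and 5 did not pass, beside 43.1% of all genes higher and 18.5% lower, with a median difference of 0.32 against 0.20 over all 13341 genes with a symbol, and the counts ran from 5 to 10 higher and 4 to 8 lower over the scalings. Il7r, the IL-7 receptor chain of lymphoid progenitors, whose protein the gate excluded, was higher by 2.40 (SE 0.06, limma adjusted p = 0.00116). Il6st, the gp130 chain shared by the IL-6 family, was higher by 1.54 (SE 0.07, adjusted p = 0.00177), and Lifr, its partner for leukemia inhibitory factor, by 1.10 (SE 0.07, adjusted p = 0.00220). Il7r, Il6st and Lifr passed as higher under all 7 scalings. Il5ra, the alpha chain that pairs with Csf2rb to bind IL-5, was chosen after its values were seen, and was 1.90-fold lower (-0.92, SE 0.11, limma adjusted p = 0.00514).

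Among signal relays next to the receptors most genes did not pass. Of 29 tested genes of adaptors, kinases and other relays, 7 rose, 4 fell and 18 did not pass, beside 43.1% of all genes higher and 18.5% lower, with a median difference of 0.09, and over the scalings 0 to 7 were higher and 4 to 10 lower. Gab3, a docking protein that relays M-CSF signals, had levels of 3.41 and 3.61 on the positive arrays and 4.84 and 4.84 on the negative arrays, a difference of -1.33 (SE 0.09, limma adjusted p = 0.00243). The related docking protein Gab1 also fell (-0.86, SE 0.09, limma adjusted p = 0.00446). Both fell under all 7 scalings. The kinase gene Fer (-0.68, SE 0.16, limma adjusted p = 0.0259) and the phospholipase gene Plcg1 (-0.48, SE 0.13, adjusted p = 0.0353) passed under 5 of 7 each.

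Genes that restrain receptor signals showed no common direction. Among 21 tested genes 5 rose and 3 fell, leaving 13 short of the threshold, beside the same shares of all genes, with a median difference of 0.01, and over the scalings 1 to 7 were higher and 3 to 13 lower. The adaptors Sla2 and Dok2 both fell, with differences of -1.18 (SE 0.06, limma adjusted p = 0.00195) and -0.66 (SE 0.06, adjusted p = 0.00340). Dok3 was higher by 0.78 (SE 0.08, limma adjusted p = 0.00380). Rasa2, which turns Ras off, fell (-0.41, SE 0.07, limma adjusted p = 0.0102). All 4 passed in the same direction under all 7 scalings.

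**Figure D4:**
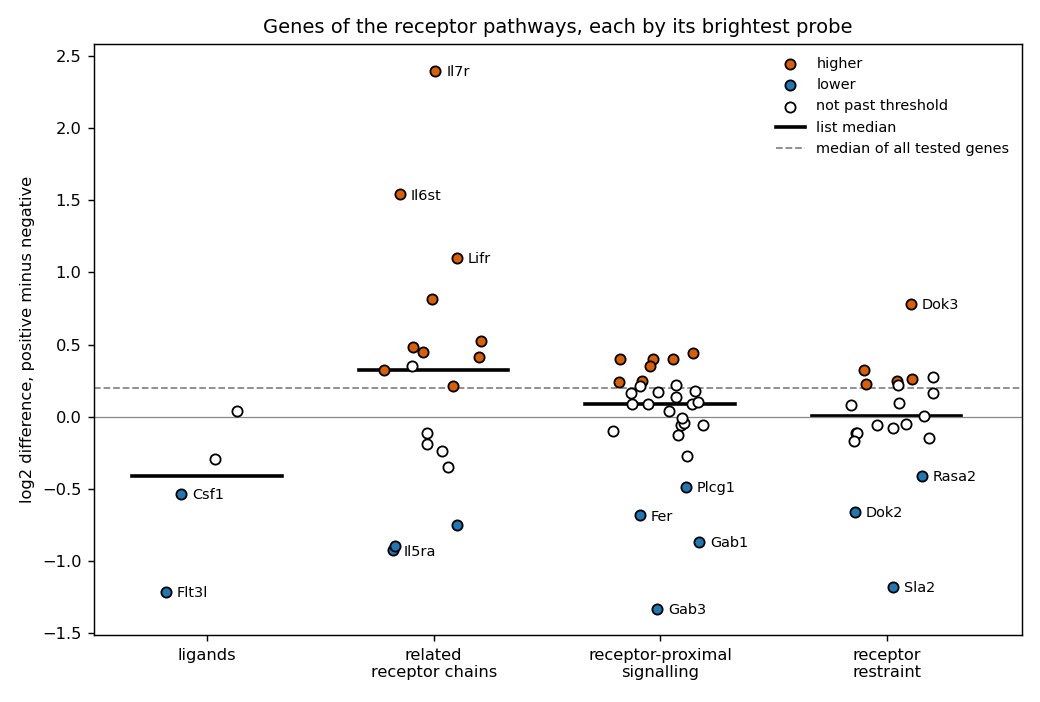
Log2 difference (positive minus negative) of tested genes in the lists of ligands, related receptor chains, signal relays and restraining genes, each by its brightest probe, with thick lines at the medians of all tested list genes (1 related receptor chain is not drawn) and a dashed line at 0.20, the median of all tested genes. Il7r lies highest, at 2.40, while most relays and restraining genes lie near 0, and the 2 unfilled ligands (Il34 and Il3) were well above background on the negative arrays only.

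The genes most like Csf1r across the arrays had differences of nearly its size. The 3 nearest of 13340 genes, by Euclidean distance over the 4 centred log2 levels, were Ppfia4 (0.0599, difference 2.71), Kcng1 (0.0827, difference 2.79) and Pmaip1 (0.116, difference 2.63). Nearest to Il3ra were Ccdc18 (0.0358), Wfdc13 (0.0458) and Hdc (0.0520), with differences of 0.77 to 0.81. Nearest to Csf2rb2 were Emc7 (0.00378), Arl6ip4 (0.0113) and Psmc2 (0.0115), with differences of 0.63 to 0.64. With 4 arrays in 2 groups such a distance mostly compares sizes of difference.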

How the data were processed

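Total RNA of sorted LMPP was hybridized to 4 one-colour Agilent arrays on 1 slide, scanned together. The authors' deposited intensity values are spot signals from Agilent Feature Extraction 10.7.3.1, background-subtracted and detrended by that software per the file headers. The deposited matrix intensity values have the same distribution on every array, with linear scale and centring not given in the sources used here.

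Control spots and outlier flags were left out (12 of 55681 probes), spots of a probe were averaged, and log2 of the signal minus that of the array's 75th percentile (318 and 414 units on the positive arrays, 438 and 543 on the negative arrays) was taken. Probes were kept if well above background, in at least 0.5 of their spots, on both arrays of at least 1 group. A probe could therefore enter through 1 group alone. RefSeq named 26756 probes with 1 symbol each, and genes of the lists stand by their brightest kept probe. limma 3.58.1 in R 4.3.3 was fitted to all 30478 kept probes without the replicate number. The fit was also run on simulated data with far fewer changed probes than were called here, so that run does not test these calls. The correlation of deviations of equally numbered arrays was 0.0835, so the numbers were not taken as pairs. The 4 arrays held 0 saturated spots. Precision is limited by 2 arrays a group. Alternatives covered background, scaling, filter, variance model, threshold, probe choice and each array left out.

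Text names every receptor probe, Irf8, up to 4 genes past the threshold with the largest difference per list (some are not reported here), list genes with a defining role that were below background, and the 3 nearest genes of 3 receptors. The receptors and all lists were chosen with earlier results of these data known.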

Additional observations from a re-analysis of the deposited data

How the results depend on the processing

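Csf1r (the brightest probe and A_52_P602091), the bright Csf2rb probe and both Csf2rb2 probes kept their direction and call under all alternatives run. Flt3 did not: its bright probe had 0.18 with normexp, 0.016 with the percentile over probes above background on all arrays, 0.25, not past the threshold, with the replicate block or at an adjusted p of 0.01, and turned to -0.22 with quantile normalization, -0.17 with cyclic loess, -0.058 with spike-in scaling and -0.23 in the matrix values. The other Flt3 probe turned to -0.075 with quantile normalization, -0.056 with that percentile, -0.077 in the matrix, -0.13 with spike-in scaling and -0.11 with cyclic loess. Csf2ra passed as lower at -0.35 with normexp and at -0.63, -0.52, -0.64, -0.59 and -0.65 in those 5 scalings, taken in the same sequence, and at -0.28 with the filter on all 4 arrays, either intensity trend or an adjusted p of 0.1. Csf3r passed at -0.57, -0.39, -0.57, -0.47 and -0.62 in those 5. Epor turned to 0.11 with normexp and did not pass at -0.22 (quantile), -0.22 (matrix), -0.24 (cyclic loess) or -0.32 (no filter, either trend, adjusted p of 0.01). Il3ra did not pass at 0.50 (matrix), 0.45 (cyclic loess) or 0.81 (adjusted p of 0.01).

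Leaving out 1 array gave 0.22 to 0.28 for Flt3, -0.41 to -0.36 for Kit, -0.39 to -0.18 for Csf2ra, -0.25 to -0.064 for Csf3r and -0.40 to -0.23 for Epor, with 8511 to 16583 probes past the threshold, 6 to 8 receptor probes higher and 0 to 2 lower. The lone array left in a group is assumed to vary like the other group. The count of 17362 probes became 27683 with no filter and 9503 at an adjusted p of 0.01. Receptor probes higher numbered 5 by brightest probe per gene, 5 by mean of probes and 5 at 0.01. Those lower numbered 4 with the percentile over probes above background on all arrays, 4 with spike-in scaling, 1 with no filter and 1 at 0.01.

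Of 600 list counts recomputed 469 stayed within 1.5 times and 131 moved. Without negative replicate 1, related chains higher numbered 5, relays 0 higher and 2 lower, and restraining genes 1 higher; without negative replicate 2 these were 6, 1, 2 and 1. Without positive replicate 1 or 2, restraining genes higher were 2 and 3, and relays higher without positive replicate 2 were 3. The share of calls that were higher, 61.4%, became 51.9% (quantile), 34.6% (percentile over probes above background on all arrays), 51.7% (matrix), 26.0% (spike-in), 48.6% (cyclic loess), 73.7% (normexp) and 77.3% (no filter). Spike-in scaling moved the median difference to -0.17, and that percentile to -0.10, against 0.14. The replicate block gave 17571 calls and changed no receptor call other than Flt3. A slide block was not run, since all arrays share 1 slide. The cause of these shifts was not tested.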

Other observations

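Markers of other lineages moved beside the receptors. Of 9 tested dendritic cell markers 6 rose, 1 fell and 2 did not pass, where 43.1% of all genes passed as higher and 18.5% as lower. Only 3 passed as higher with quantile normalization, the percentile over probes above background on all arrays, the matrix values, spike-in scaling or cyclic loess, and without negative replicate 1. Clec9a, which encodes a dendritic cell lectin, was well above background on the positive arrays only, at least 8.04-fold higher (limma adjusted p = 0.00116). That bound sets the positive mean against the dimmest signal well above background, or the probe's own where brighter. Ccr9, a chemokine receptor of plasmacytoid dendritic cells, was 3.51-fold lower (adjusted p = 0.00139). Of 8 tested B lineage markers 6 rose and 0 fell, leaving 2 short of the threshold, and the adaptor gene Blnk was 3.29-fold higher (limma adjusted p = 0.00153), while Ebf1 and Ms4a1 were above background on no array. Vpreb3, among those that rose, was well above background on the positive arrays only and entered through that group.

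Of 7 tested T, NK and innate lymphoid markers 2 rose, 2 fell and 3 did not pass, and Gata3, a transcription factor of T cells and innate lymphoid cells, was 4.17-fold lower (limma adjusted p = 0.00122). Of 8 tested stroma and endothelium markers 0 rose, 5 fell and 3 did not pass, and Cdh5 was above background on no array. Tek and Vcam1, among those that fell, were well above background on the negative arrays only and entered through that group. The summed signal of the 8 was 16.5 to 21.0 on the positive arrays and 14.0 to 16.3 on the negative arrays. Without Kdr and Lepr, the brightest, which did not pass, it was 0.772 to 0.775 and 1.14 to 1.17. Of 10 LMPP markers 6 rose, 2 fell and 2 did not pass, beside 43.1% of all genes higher and 18.5% lower, and 3 rose with quantile normalization, the matrix values, spike-in scaling, cyclic loess or without negative replicate 2. Of 11 tested stem cell markers 9 fell, 1 rose and 1 did not pass. Mecom, among those that fell, was well above background on the negative arrays only and entered through that group. Of 7 tested megakaryocyte and platelet markers 6 fell and 1 rose, and their summed signal was 4.72 to 4.86 on the positive arrays and 8.02 to 8.24 on the negative arrays. The same held for Gp1ba, among those that fell, which was well above background on the negative arrays only.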
